A study of Triticum aestivum with 16 samples.

Results

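A group of 50 of the 61115 wheat probe sets on the array split the 8 lines of the series into bright and dim lines with no overlap between their arrays. They were chosen from their measured values. A probe set was taken where the lowest of the 8 arrays of SB165, SB169, SB10 and SB3 lay at least 0.8 log2 units above the highest of the 8 arrays of SB62, SB109, SB69 and SB57, or the reverse. This distance is called the gap below. The separation of these lines is therefore what defined the group, and it is described here without a test. The 50 were 0.0818% of the wheat probe sets. Of these, 48 (0.0785% of all) were brighter in SB165, SB169, SB10 and SB3, and 2 (0.00327% of all) were brighter in SB62, SB109, SB69 and SB57.

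The lines are recombinant inbred lines of bread wheat from the cross of the cultivars Seri M82 and Babax, grown rain-fed in the field. Each line was sampled in 2 field replicates at anthesis. Stems of main tillers were pooled within a plot, and the upper part was taken, which held the peduncle, the internode below it and their leaf sheath. Herbicide and fungicide had been applied to the plots, and the soil was still wet from heavy rain when the stems were cut. One Affymetrix array was hybridised per sample, which gave 16 arrays. No label ties a line to a carbohydrate level or says which parent's allele it carries, so the 2 sets of lines are a result of the measurement and not a design group.

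An inbred line of such a cross is fixed, at nearly every locus, for the allele of one parent or of the other. A transcript whose level is set by a single locus can then take a high level in some lines and a low level in the rest. Bread wheat is hexaploid, so most genes have closely similar copies, called homoeologues, on the A, B and D genomes. A probe set is a group of short oligonucleotides read together as 1 value. Its identifier names a cluster of expressed sequences before the second dot, and a sequence difference under the oligonucleotides changes the value as a difference in transcript amount does. The values alone cannot tell these apart.

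Array medians were alike, from 23.56 to 25.01 intensity units, and log2 values of the replicates of a line correlated at 0.984 in SB3 to 0.995 in SB169. One array stood apart at the probe sets described here. SB69 replicate 1 lay above every other array of the dim lines at 29 of the 48 probe sets that were dim in SB69. Some of the counts and medians that include it are also given without it. The deposited tables pair few probe sets with genes, so stem marker genes were not checked. No oligonucleotide or transcript sequences of the probe sets were used here.

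The 50 probe sets came from 44 separate clusters, 42 of them with members brighter in SB165, SB169, SB10 and SB3 and 2 with members brighter in the other lines. Separate clusters are not for certain separate genes. The platform annotation pairs probe sets of Ta.28514, which holds a member, and of Ta.5937, which holds none, with the same gene. In 39 clusters 1 probe set was a member, and 5 clusters held the other 11 members. For 26 of the 44 clusters the array carries a single probe set. Members with identifiers starting in TaAffx made up 20% (10 of 50), against 48.6% of all wheat probe sets. Identifiers that end in a plain _at mark probe sets designed to match 1 transcript, and those ending in _a_at, _s_at or _x_at may read several related transcripts. There were 33 plain members (66%, against 79.2% of all wheat probe sets), 6 ending in _a_at (12% against 5.43%), 4 in _s_at (8% against 4.28%) and 7 in _x_at (14% against 11.1%).

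Among the 48 members brighter in SB165, SB169, SB10 and SB3, the difference between the means of the bright and dim arrays ranged from 1.19 to 5.82 log2 units, with a median of 2.29 (1.18 to 6.32, with a median of 2.35, without SB69 replicate 1). On the linear scale this was 2.28-fold to 56.3-fold, with a median of 4.89-fold. The difference reached 2 log2 units at 31 of the 48, 3 at 13 and 4 at 7. In bulk tissue, fewer cells of a type and less RNA per cell cannot be told apart in such a level. The gap ran from 0.80 to 2.94 and had a median of 1.34 (1.61 without SB69 replicate 1). Within the 8 bright arrays the SD of a member had a median of 0.23 log2 units, and within the 8 dim arrays of 0.34 (0.26 without SB69 replicate 1).

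The dim lines were not uniformly at the bottom of the array's range. Ranked against all wheat probe sets of the same array, the dim level of the 48 lay at percentiles from 7.59 to 97.0, with a median of 48. The bright level lay at percentiles from 36.2 to 99.6, with a median of 81.9. At 27 of the 48 the dim lines stood below the middle of the array, and at 2 they stood above the 90th percentile. An example of a difference between 2 bright levels was Ta.13731.1.S1_at. Its log2 level was 10.67 at the lowest, 10.86 at the median and 11.05 at the highest of the bright arrays, and 9.39, 9.67 and 9.77 in the dim arrays, a 2.34-fold difference between set means. At the dim end, TaAffx.91379.1.A1_at reached only 4.0 in its brightest array and 2.42 in its dimmest. The normalization used compresses differences of dim probe sets, so fold sizes at low signal hold for the normalized values only.

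**Figure D1:**
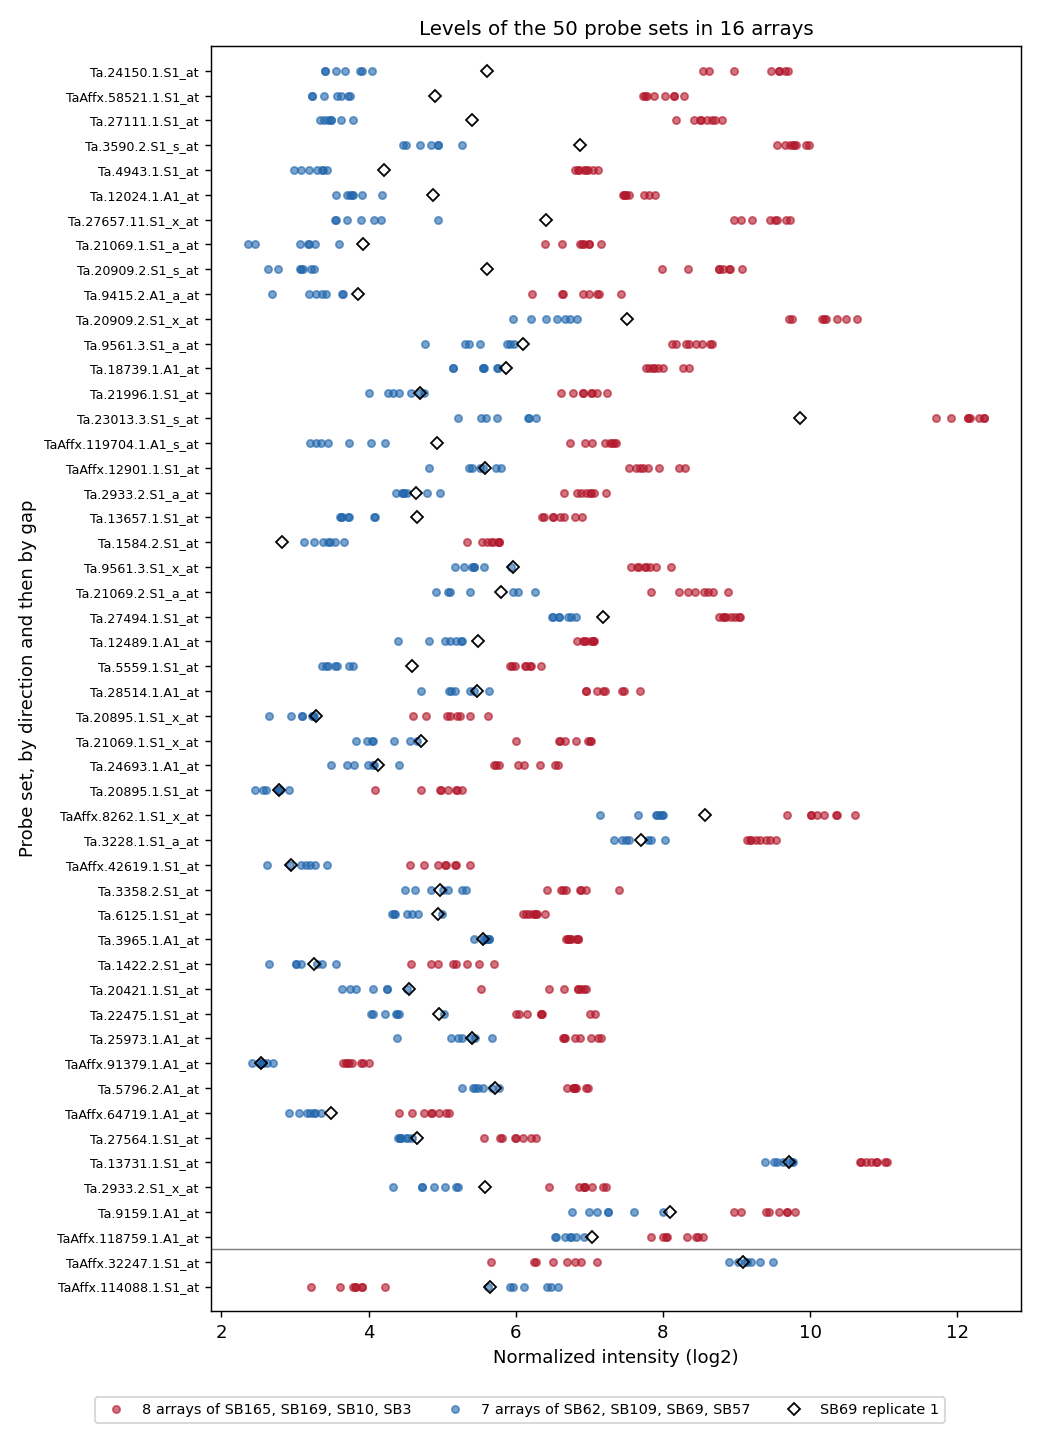
Normalized intensity (log2, horizontal axis) of the 50 probe sets (vertical axis) in each of the 16 arrays, with the 48 members brighter in SB165, SB169, SB10 and SB3 above the line, in order of their gap, and the 2 of the other direction below it. Red points are the 8 arrays of SB165, SB169, SB10 and SB3, blue points 7 arrays of the other lines, and open diamonds SB69 replicate 1, which lies to the right of all other dim arrays at 29 of the 48.

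Over all 16 arrays, the widest gap, 2.94 log2 units, belonged to Ta.24150.1.S1_at, which the platform annotation pairs with the gene LOC543445. Its log2 level in the bright arrays was 8.55 at the lowest, 9.52 at the median and 9.70 at the highest, against 3.41, 3.78 and 5.61 in the dim arrays. By line it was 9.01 ± 0.65 in SB165, 8.79 ± 0.23 in SB169, 9.61 ± 0.06 in SB10 and 9.64 ± 0.09 in SB3 (SD, n = 2 each). The dim lines stood at 3.48 ± 0.11 in SB62, 3.90 ± 0.02 in SB109, 4.83 ± 1.10 in SB69 and 3.55 ± 0.20 in SB57 (SD, n = 2 each). The set means differed 40.1-fold, and the 5.61 was SB69 replicate 1, while SB69 replicate 2 stood at 4.05 with the other dim arrays. Among the bright lines, SB165 replicate 1 was the lowest array.

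The second widest gap over all 16 arrays was 2.82 log2 units, at TaAffx.58521.1.S1_at, which has no paired gene. The bright arrays ran from 7.73 through a median of 7.96 to 8.29, and the dim arrays from 3.23 through 3.60 to 4.90. Line means were 7.88 ± 0.22 in SB165, 8.22 ± 0.10 in SB169, 7.83 ± 0.07 in SB10 and 7.95 ± 0.28 in SB3 (SD, n = 2 each). They were 3.48 ± 0.34 in SB62, 3.49 ± 0.36 in SB109, 4.27 ± 0.90 in SB69 and 3.48 ± 0.12 in SB57 (SD, n = 2 each). SB69 replicate 1 was again the highest dim array, at 4.90 against 3.63 in replicate 2.

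The 2 members of the opposite direction showed the reverse order of the lines. At TaAffx.32247.1.S1_at, SB62, SB109, SB69 and SB57 stood at 9.17 ± 0.04, 9.11 ± 0.30, 9.05 ± 0.05 and 9.30 ± 0.27 log2 units (SD, n = 2 each). SB165, SB169, SB10 and SB3 stood at 6.95 ± 0.21, 6.26 ± 0.02, 6.80 ± 0.13 and 6.08 ± 0.60 (SD, n = 2 each), a 6.22-fold difference between set means. Its dim arrays ran from 5.66 to 7.10 and its bright arrays from 8.90 to 9.50, and SB69 replicate 1 lay inside the bright range at 9.08. At TaAffx.114088.1.S1_at the bright lines were less even, from 5.80 ± 0.22 in SB69 to 6.53 ± 0.06 in SB57, and the dim lines lay from 3.51 ± 0.40 in SB3 to 3.92 ± 0.43 in SB10 (SD, n = 2 each). The set means there differed 4.93-fold. SB69 replicate 1 stood at 5.64, just above the lowest bright array, SB62 replicate 2, at 5.62. SB3 replicate 2 was the lowest array of the dim lines at both probe sets, at 5.66 and 3.22.

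**Figure D2:**
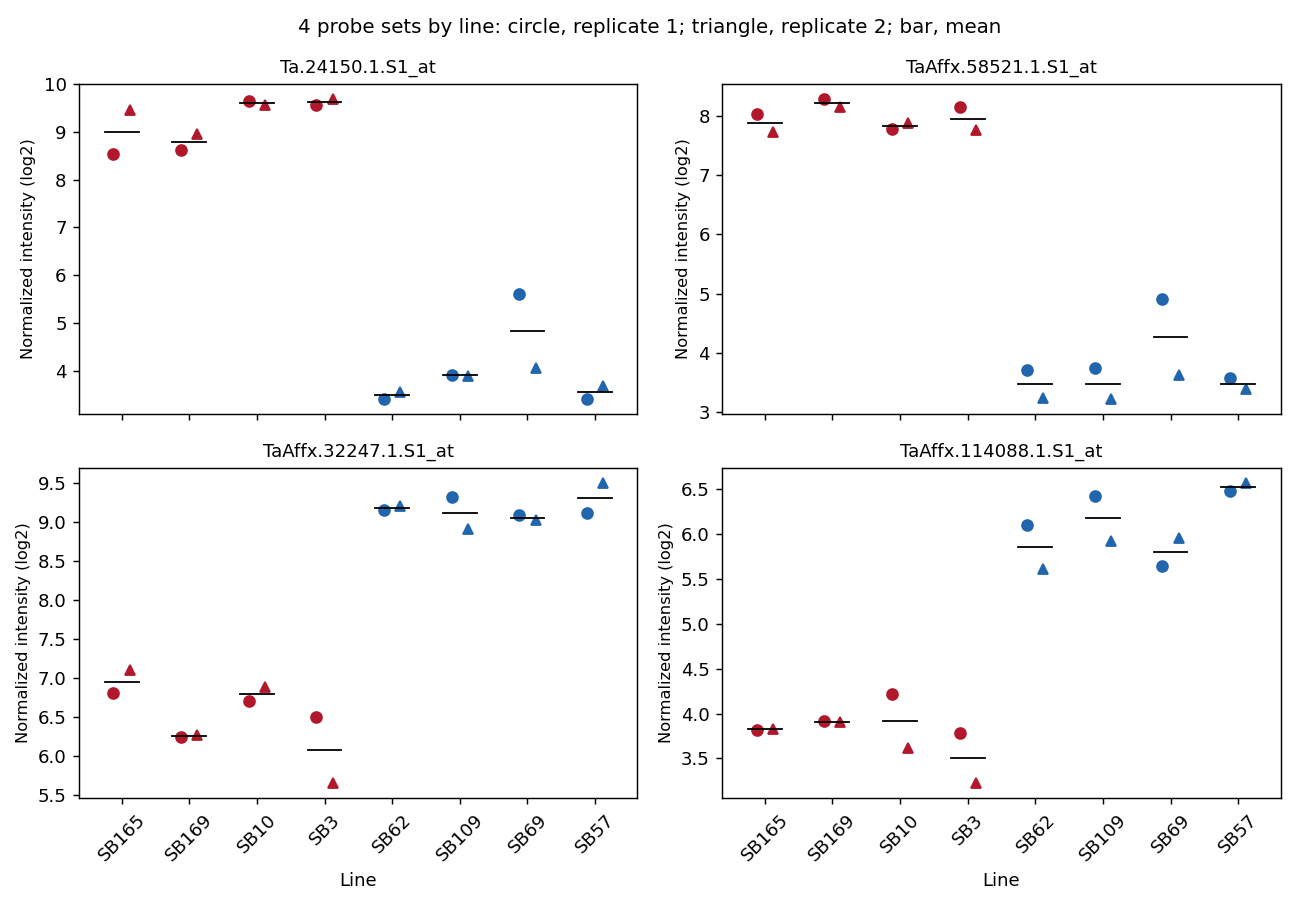
Normalized intensity (log2, vertical axis) by line (horizontal axis) for the 2 probe sets with the widest gap in favour of SB165, SB169, SB10 and SB3 (upper panels) and the 2 of the opposite direction (lower panels). Gaps were taken over all 16 arrays. Circles are field replicate 1, triangles replicate 2 and bars the mean of both. In the upper panels the circle of SB69 stands above the other dim points, at 5.61 and 4.90. In the lower panels it lies within the range of the bright points, at 9.08 and, near the lower end of that range, at 5.64.

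At the threshold, the last member inside was TaAffx.118759.1.A1_at with a gap of 0.80, between 7.84 in SB169 replicate 1 and 7.04 in SB69 replicate 1. The first probe set outside was Ta.24671.1.S1_at with a gap of 0.78, between 6.79 in SB3 replicate 1 and 6.01 in SB69 replicate 2. In the opposite direction the smallest gap inside was the 1.39 of TaAffx.114088.1.S1_at, and the next probe set, Ta.24309.1.S1_at, had a gap of 0.59. Without any minimum gap, 223 wheat probe sets (0.365%) had no overlap between the sets of lines, 175 of them (0.286%) brighter in SB165, SB169, SB10 and SB3 and 48 (0.0785%) brighter in the other lines.

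Several probe sets of 1 cluster shared the pattern in 5 cases, and these are not separate transcripts for certain. Ta.21069 held 3 members among its 6 probe sets on the array, with set means apart by 3.73 log2 units at Ta.21069.1.S1_a_at, 2.88 at Ta.21069.2.S1_a_at and 2.44 at Ta.21069.1.S1_x_at. Ta.20909 held 2 of 5, apart by 5.35 and 3.58 log2 units. Both of these carry the same number within the cluster (Ta.20909.2.S1), with the endings _s_at and _x_at. Ta.9561 (2.80 and 2.25), Ta.20895 (2.23 and 2.02) and Ta.2933 (2.37 and 1.98) held 2 members each. Ta.2933 was the only cluster with more than 1 probe set on the array in which every probe set was a member.

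The other probe sets of the same clusters are, by definition, those that missed the rule. There were 47 such probe sets in 17 clusters, and at 28 of them the set means lay less than 0.5 log2 units apart. Some of the 28 were near background, where the normalization compresses differences. At 36 of the 47 the difference went in the direction of the member. At 7 of the 47 the sets of lines had no overlap, beside 0.365% of all wheat probe sets. Their median difference in the direction of the member was 0.28 log2 units, against a median of -0.03 (SB165, SB169, SB10 and SB3 minus the others) over all wheat probe sets. In limma's contrast of the line sets, 12 of the 47 (25.5%) passed an adjusted p of 0.05, 11 along the member and 1 against it, beside 2.57% of all wheat probe sets (1.62% brighter in SB165, SB169, SB10 and SB3 and 0.951% brighter in the others). The count was higher without SB3 replicate 1, a fit for which the share of all wheat probe sets is not given. The contrast compares the same line sets as the rule, and the 47 may share oligonucleotide targets with the members. Nothing further is therefore read from these counts and shares.

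The largest such difference along a member was at Ta.27657.2.S1_x_at, 2.33 log2 units (SE 0.14, limma adjusted p = 6.19e-08), beside the member Ta.27657.11.S1_x_at at 5.11. The next was Ta.1422.2.S1_x_at, 1.31 log2 units (SE 0.12, limma adjusted p = 6.05e-06), beside 2.00 at the member Ta.1422.2.S1_at. The 1 call against its member came from the same cluster. Ta.1422.3.S1_a_at was 0.53 log2 units lower in SB165, SB169, SB10 and SB3 (difference -0.53, SE 0.09, limma adjusted p = 0.00398). Ta.1422.3.S1_x_at had the second largest difference against its member, -0.28 (SE 0.10), and did not pass (limma adjusted p = 0.163). All p-values in this paragraph are from the contrast on the line split that chose the members, so they serve as description only.

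Ta.27657 gave 13 of the 47 other probe sets. All 13 had a higher mean in SB165, SB169, SB10 and SB3, by 0.01 to 2.33 log2 units, but only 1 passed in limma, and their line means ranged by up to 3.56 log2 units over the 8 lines. Over the 34 other probe sets outside Ta.27657, the median difference in the direction of the member was 0.10 log2 units, and 11 passed.

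**Figure D3:**
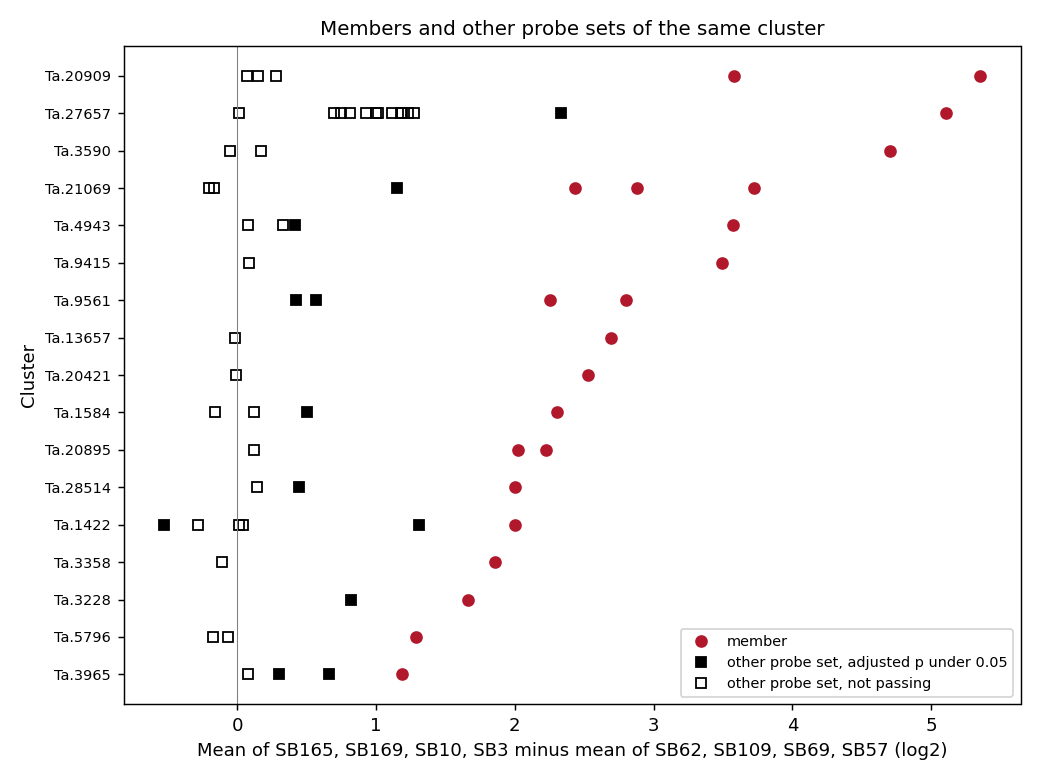
Difference between the mean of SB165, SB169, SB10 and SB3 and that of the other lines (log2, horizontal axis) for the 17 clusters (vertical axis) that have further probe sets on the array. Red points are members, filled squares other probe sets that passed a limma adjusted p of 0.05 and open squares those that did not; 28 of the 47 squares lie within 0.5 of zero.

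The platform annotation pairs 1273 wheat probe sets with 1 gene each, and 3 of the 50 members were among them. For Ta.28514.1.A1_at (gene LOC780602) the bright arrays lay from 6.95 through a median of 7.20 to 7.69 log2 units, and the dim arrays from 4.71 through 5.27 to 5.63, a 4.0-fold difference between set means. For Ta.5796.2.A1_at (gene LOC606345) they lay from 6.70 through 6.80 to 6.98 and from 5.27 through 5.52 to 5.77, a 2.44-fold difference. LOC543445, at Ta.24150.1.S1_at, is described above. The annotation gives no description for these genes, so no function is stated. The other 47 members stay unnamed here.

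Other probe sets paired with the same genes did not follow to the same extent. The p-values here are from the contrast on the line split that chose the members, so they are given as description only. For LOC780602, Ta.28514.2.S1_at differed by 0.44 log2 units (SE 0.08, limma adjusted p = 0.00423). Ta.28514.2.S1_s_at (0.14, limma adjusted p = 0.395), Ta.5937.2.S1_at (0.12, limma adjusted p = 0.554) and Ta.5937.1.S1_x_at (-0.01, limma adjusted p = 0.973) did not pass. For LOC606345, Ta.5796.3.S1_a_at had a difference of -0.07 (SE 0.06, limma adjusted p = 0.583), with set means of 8.51 and 8.58 log2 units. Levels of different probe sets are not on a common scale, so only the differences compare.

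In the assembly IWGSC CS RefSeq v2.1, the 3 named genes lie on 3 chromosomes of homoeologous group 1, the set of corresponding chromosomes 1A, 1B and 1D. LOC543445 is on 1B, LOC780602 on 1D and LOC606345 on 1A. A gene record stands for 1 of the homoeologous copies, so the copy that a probe set reads may lie on another chromosome of the group. Of the 1273 paired probe sets, 193 (15.2%) belong to genes of group 1. All 5 paired probe sets with no overlap between the sets of lines, which include the 3 members, were among these 193. They are not 5 separate genes, since LOC780602 holds more than 1 of them. Probe sets with no overlap were 5 of the 1273 paired ones, beside 223 of all 61115 wheat probe sets (0.365%). The group 1 chromosomes were singled out after these placements were seen, and 3 genes are few.

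The same placement was read across the paired probe sets that did not meet the rule. Without the 3 members, 190 probe sets of group 1 remained, and 18 of them (9.47%) passed limma's contrast of the line sets, 13 brighter in SB165, SB169, SB10 and SB3 and 5 brighter in the others. The 18 belong to 16 genes. On the chromosomes of the other groups, 32 of 1061 (3.02%) passed, 23 and 9 in the same order, from 27 genes, and 19 paired probe sets without a placement were not counted. The largest difference among the 18 was 0.93 log2 units and among the 32 was 1.68. Their median sizes were 0.48 in each case. Probe sets of 1 gene are not independent, and these shares were not tested. The contrast compares the same line sets as the rule, which were found in these same arrays. The 190 also still hold other probe sets of member genes, and Ta.28514.2.S1_at of LOC780602 is among the 18. Nothing further is therefore read from these shares.

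SB69 replicate 1 lay a little way from the dim towards the bright lines at most of the 48 members. Its mean log2 level over the 48 was 5.36, while the other 7 dim arrays had means from 4.54 to 4.78 and the bright arrays from 7.37 to 7.54. On the linear scale, a position was computed for each array and member, with 0% at the mean of the dim arrays of other lines and 100% at the mean of the bright arrays of other lines, and with SB69 replicate 1 left out of the dim mean. The median position of SB69 replicate 1 was 7.69% (quartiles 2.90% and 11.4%, range -8.99% to 21.2%), and it lay above 0% at 43 of 48. The medians of the other 7 dim arrays ran from -1.41% in SB109 replicate 2 to 0.88% in SB57 replicate 2, with SB69 replicate 2 at 0.21%. At the 2 members of the opposite direction, 0% was set at the bright arrays of other lines and 100% at the dim arrays. There SB69 replicate 1 lay at 9.81% for TaAffx.32247.1.S1_at and 41.0% for TaAffx.114088.1.S1_at, so towards the dim lines at both.

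The pattern was clearest where the sets lay far apart. At the 13 members whose set means differed by at least 3 log2 units, SB69 replicate 1 was the highest dim array in all 13. Its position there ran from 3.29% to 19.5%, with a median of 8.50%, and it exceeded SB69 replicate 2 by a median of 1.56 log2 units. The 2 members with the largest spread between plots of a line both owed it to SB69. Ta.23013.3.S1_s_at stood at 9.86 in SB69 replicate 1 and 6.16 in replicate 2, with the bright arrays from 11.71 to 12.36. Ta.20909.2.S1_s_at stood at 5.60 and 3.26, with the bright arrays from 7.99 to 9.07.

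Between plots of a line, the members differed more in SB69 than in any other line. The median absolute difference between replicates at the 48 members was 0.56 log2 units in SB69, against 0.13 in SB10 to 0.29 in SB109 in the other 7 lines. Over all wheat probe sets it was 0.15 in SB69, within the 0.13 to 0.19 of the others. Replicate 2 was the lower at 40 of the 48 members in SB69, and at 49.9% of all wheat probe sets. SB109 replicate 2 was lower at 35 of the 48, by a median of 0.26. What set SB69 replicate 1 apart was not tested. Without this array the rule gave 55 members in place of 50, 53 of them brighter in SB165, SB169, SB10 and SB3. The widest gap was then 5.43, at Ta.23013.3.S1_s_at, in place of 2.94 at Ta.24150.1.S1_at. The ranks of Ta.24150.1.S1_at and TaAffx.58521.1.S1_at as widest and second widest thus hold over all 16 arrays only.

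**Figure D4:**
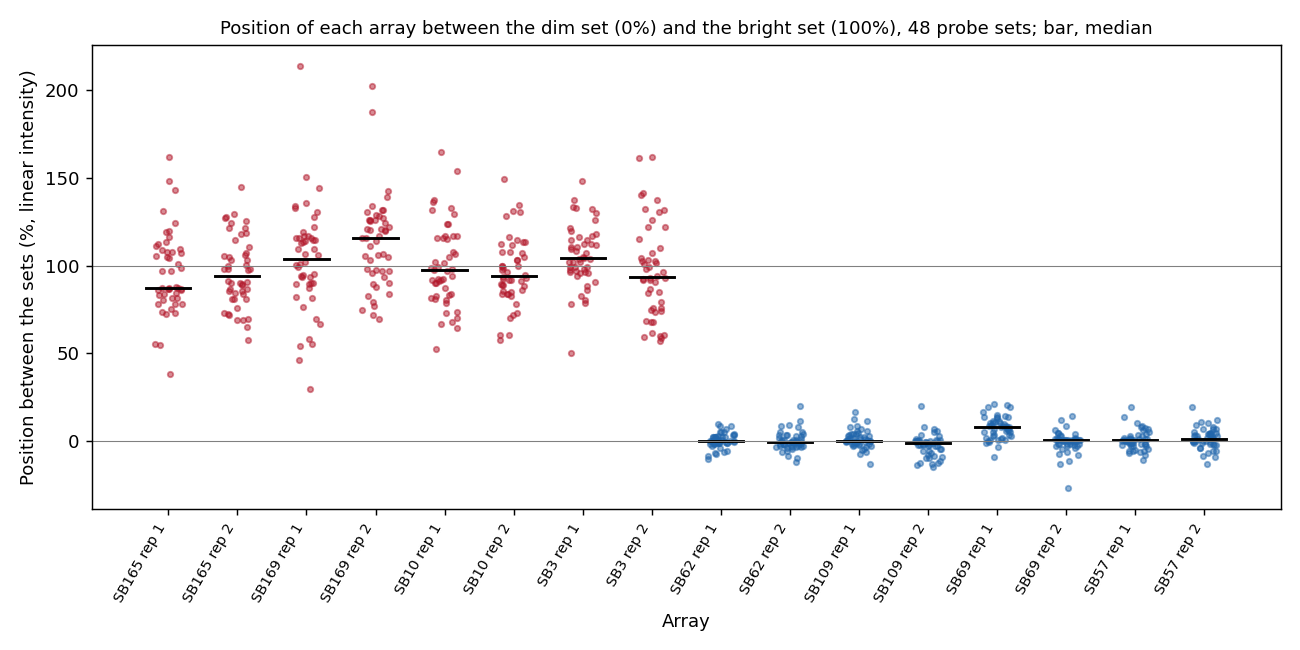
Position of each array (horizontal axis) between the dim lines (0%) and the bright lines (100%) on the linear intensity scale (vertical axis), with 1 point for each of the 48 members brighter in SB165, SB169, SB10 and SB3 and a bar at the median. Red arrays belong to the bright lines and blue to the dim lines. SB69 replicate 1 has a median of 7.69%, and the medians of the other dim arrays lie between -1.41% and 0.88%. Single points of those other dim arrays reach from -26.8% in SB69 replicate 2 to 19.8% in SB62 replicate 2.

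The 2 field replicates were also read separately. The split of the lines itself was found over all 16 arrays, so neither replicate is independent of it, and the counts below describe repetition and support nothing further. Chosen by the same gap from the 8 arrays of replicate 1 alone, 53 probe sets were brighter in SB165, SB169, SB10 and SB3. In replicate 2, all 53 had no overlap in that direction (1.73% of all wheat probe sets), and 51 again had a gap of at least 0.8 (0.0982% of all). Their smallest gap in replicate 2 was 0.65 and the median 1.75. Of 3 chosen in the opposite direction, all 3 had no overlap in replicate 2 (3.27% of all) and 2 met the gap (0.00327% of all).

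With replicate 2 choosing, 60 probe sets were brighter in SB165, SB169, SB10 and SB3. All 60 had no overlap in replicate 1 (1.52% of all) and 51 met the gap (0.0867% of all), with a smallest gap of 0.26 and a median of 1.32. Both probe sets chosen in the opposite direction met the gap in replicate 1 (no overlap in 1.71% of all and the gap met by 0.00491%). SB69 replicate 1 belongs to the plots of replicate 1. The plots are of the same lines, so these counts describe how far the line levels repeated between plots, not whether other lines would split alike.

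**Figure D5:**
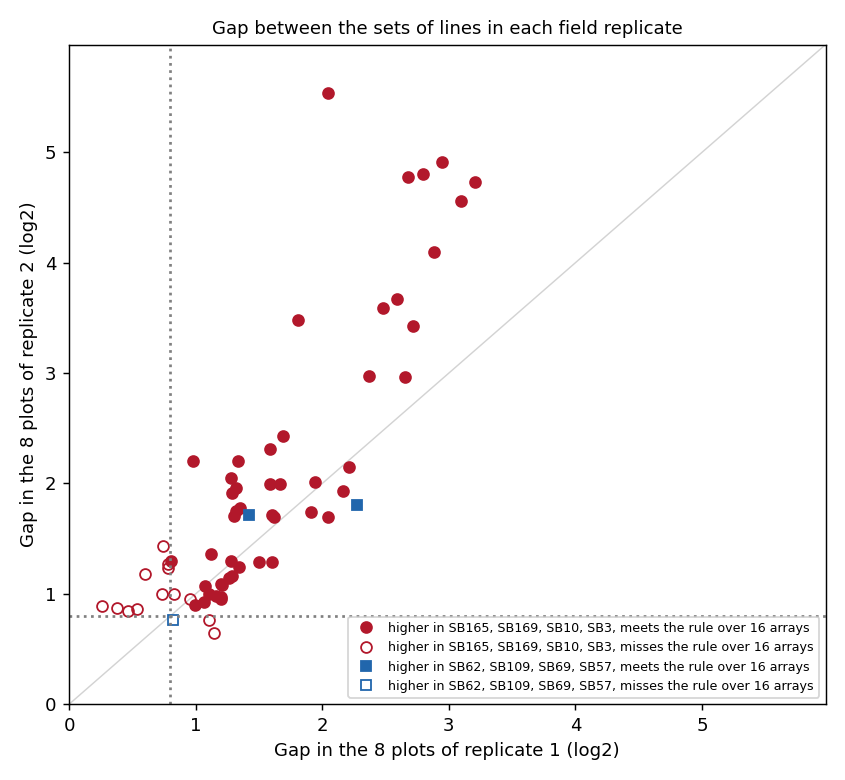
Gap between the sets of lines in the 8 plots of replicate 1 (horizontal axis, log2) and in the 8 plots of replicate 2 (vertical axis, log2) for each probe set that reached 0.8, the dotted lines, in either replicate. Red circles are brighter in SB165, SB169, SB10 and SB3 and blue squares in the other lines, filled where the rule was met over 16 arrays; the grey diagonal marks equal gaps, and every point has a gap above zero in both replicates.

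The lines were also compared inside each set. The rule compares the sets and not the lines within them, though it favours members whose lines lie close together. In limma's F-test among SB165, SB169, SB10 and SB3, 0 of the 50 members passed an adjusted p of 0.05 (1.74% of all wheat probe sets did), and 6 (12%) had an unadjusted p under 0.05, against 9.94% of all. The lowest limma adjusted p was 0.0848. At least 1 member passed without SB3 replicate 1, and also with SB62 replicate 1 or SB62 replicate 2 left out. The share of all wheat probe sets in those fits is not given. The line means of a member ranged by a median of 0.37 log2 units over these 4 lines, from 0.05 to 0.96, against 0.24 for all wheat probe sets. Of the 48 members brighter in these lines, SB169 had the highest line mean in 25 and SB165 the lowest in 17. The mean log2 levels over the 48 were 7.39 in SB165, 7.47 in SB169, 7.41 in SB10 and 7.43 in SB3.

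Among SB62, SB109, SB69 and SB57, 1 of the 50 passed the F-test (1.6% of all wheat probe sets did), a share close to that of all. An unadjusted p under 0.05 was found at 16 (32%), against 12.2% of all, and without SB69 replicate 1 at 10 (20%), against 9.54% of all. Line means ranged by a median of 0.53 log2 units, against 0.27 for all wheat probe sets, and without that array by 0.40 against 0.28. SB69 had the highest line mean of these lines at 29 of the 48, and at 14 without that array. The member that passed was Ta.21069.2.S1_a_at (limma adjusted p = 0.0164). It stood at 6.26 and 5.97 log2 units in SB109, 5.80 and 6.02 in SB69, 5.08 and 5.38 in SB57 and 5.11 and 4.92 in SB62. SB109 and SB69 were thus above SB57 and SB62 with no overlap, a 2.14-fold range from SB109 to SB62, while all 8 bright arrays lay between 7.84 and 8.89. Without SB69 replicate 1 it still passed (limma adjusted p = 0.0323), and the count of members was 2, with 1.1% of all wheat probe sets passing. The count depended on the array left out and was highest without SB69 replicate 2, when SB69 rested on the replicate that stood apart. For those other fits the share of all wheat probe sets is not given, so their counts are not read further.

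The field replicates were compared over all lines. In limma with a mean per line, 0 of the 50 members passed for replicate 2 against replicate 1 (0.00164% of all wheat probe sets, a single one, did). An unadjusted p under 0.05 was found at 10 members (20%, against 8.33% of all), and the lowest limma adjusted p among the members was 0.495. The estimated differences had a median of -0.08 log2 units and reached 0.56 in size. These values include SB69, where replicate 2 was lower at 40 of the 48 members and the median difference was -0.52 log2 units. The unadjusted share without SB69 replicate 1 is not given here, so the 20% is not read as a difference between field replicates over lines.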

How the data were processed

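Per the submitters' processing notes, GCOS and RMA were used, with no versions or order. The deposited table gives a normalized intensity for every probe set in every array, judged from its values to be on a linear scale; RMA itself gives log2 values, and the sources used here do not state the step back. The lowest wheat value was 3.08, so the floor of 1 set before taking log2 changed no value. The 61115 wheat probe sets of 61289 in the table were kept with no further normalization; the 110 controls and 64 reporters were dropped. The labels give 2 field replicates of each line, with stems drawn from each plot, and 2 arrays per line limit the precision.

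The members, the lists and the rule were chosen with earlier results of these data known. Probe sets named were those with a paired gene, the 2 with the widest gap in each direction, those next to the threshold, those of clusters with several members, the called members with the widest line range, the 2 with the largest spread between plots and the other probe sets of member clusters with the largest differences; Ta.13731.1.S1_at, TaAffx.91379.1.A1_at and the Ta.5937 probe sets were added after their values were seen. The fit used limma 3.58.1 (R 4.3.3): 1 mean per line over all 16 arrays, eBayes with an intensity trend (6.77 prior degrees of freedom), and Benjamini-Hochberg adjustment over all wheat probe sets at 0.05. The fit and the rule were tested on simulated data. Counts and plots used Python 3.11.15 with pandas 2.3.3 and matplotlib 3.10.9. Genes came from the platform annotation, which pairs 1273 wheat probe sets with 1 gene and 0 with several and leaves 59842 unnamed here; 1272 of the 1273 were found in RefSeq's gene table for IWGSC CS RefSeq v2.1, which served only to place genes on chromosomes. Alternatives covered the floor, the gap, normalization, dim and less specific probe sets, the trend, array weights, the replicate block, the threshold and each array left out.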

Additional observations from a re-analysis of the deposited data

Results flagged for a closer look

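For the members brighter in SB165, SB169, SB10 and SB3, the mean log2 level in SB69 replicate 1 was 5.36, and the nearest of the other 7 arrays of SB62, SB109, SB69 and SB57 stood at 4.78. This step was 70.9% of the whole range of the 8 arrays, which ran from 4.54 to 5.36, and it marked the array as lying far from the others. For the 2 members of the opposite direction, the mean log2 level in SB3 replicate 2 was 4.44, with the nearest of the other arrays of SB165, SB169, SB10 and SB3 at 5.08 and the highest at 5.46. Each set of 8 arrays holds 4 lines, so differences between lines enter this measure, and chance alone marks about 1 in 20 such sets.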

How the results depend on the processing

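Counts were recomputed in 185 combinations of a result and an alternative, and 168 stayed within 1.5 times the reported count, with 8 of the rest higher and 9 lower. A floor of 4 or none kept the 50 members, quantile normalization gave 50 of which 47 were shared, and centring on array medians gave 53 that include the 50. A gap of 2 log2 units left 12 members, all brighter in SB165, SB169, SB10 and SB3, and 0 in the opposite direction, from 11 clusters. With plain _at probe sets alone, 33 members remained, 31 of them brighter in those lines, since fewer entered. Leaving out each array in turn gave 50 to 55 members, 48 to 53 and 2 by direction, from 44 to 49 clusters; by construction this can only raise the counts of members.

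In the F-test among SB165, SB169, SB10 and SB3, 1 member passed with array weights, and 0 to 2 with an array left out. Among SB62, SB109, SB69 and SB57, 0 passed at an adjusted p under 0.01 and 0 to 7 with an array left out. Of the 47 other probe sets of the clusters, 11 to 22 passed with an array left out, the highest without SB3 replicate 1. For field replicate 2 against 1, 0 members passed with any line left out. Apart from the fit without SB69 replicate 1, the share of all wheat probe sets is not given for these alternatives. Their counts are therefore not set against it. Where neither a stricter threshold nor fewer features made the change, the cause was not tested.

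With the replicate block, 2 members passed among SB62, SB109, SB69 and SB57, against 1, and no other count moved by over 1.5 times. The share of all wheat probe sets in that fit is not given. The numbers were not taken to pair the plots: deviations of same-numbered arrays correlated over 0.1 in 14 of 28 pairs of lines (-0.295 to 0.536), and the best match was the own number in 5 of 8 lines. Probe sets near background, where the normalization compresses differences, limit what the dim levels can show.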
